A study of Nasturtium officinale with 24 samples.

Results

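The 100 most abundant transcript contigs of watercress (Nasturtium officinale) were followed through stems and petioles, in air and under water. They were chosen on their measured level. The unit is CPM, the estimated count of a contig divided by the sum of its library and multiplied by 1000000. It was averaged over all 24 libraries, contigs whose group means in air differed by a log2 ratio of 2 or more between stem and petiole on either day were left out, and the highest 100 were kept. The limit was put on the log2 ratio of stem over petiole, with 1 CPM added to both, which had to stay between -2 and 2. That limit was passed by 80437 of the 80741 contigs measured, and of the 53919 contigs abundant enough to be tested 100 are described here. Their level and their ratio of stem to petiole in air are therefore descriptions and carry no test.

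Plants about 3 weeks old stayed in air or were submerged as a whole. After 1 day or 2 days their stems and their petioles, the stalks of the leaves, were harvested apart. The 8 groups are therefore petiole or stem, in air or under water, at 1 or 2 days, each with 3 libraries, and each library was made from the pooled tissue of 5 plants. All plants grew under short days, and the labels name no genotype, so none is given here for any group. The title of the series speaks of stem elongation under water. The question here is how submergence and tissue shift the most abundant transcripts.

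In green plant tissue a small number of transcripts usually makes up a large part of the messenger RNA, among them those for photosynthesis, translation and cell structure. A count share is relative, so a rise of one abundant transcript lowers the share of all others. Plants under water meet slow gas exchange and dim light, and semi-aquatic species can answer with growth of stalks and stems towards the surface. The contigs carry no gene names in the files, so no function is given to any of them, and they are called by their rank in mean CPM. Several contigs can belong to 1 gene, and contigs with near-identical copies share reads, which makes their separate values uncertain. The tissue labels could not be checked against marker genes for the same reason.

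The members were abundant in every library, though not all of them among its highest 100. Between 75 and 90 of the 100 were among the highest 100 of a single library (median 80), 41 were among the highest 100 in all 24, and all 100 were among the highest 1000 in all 24. The lowest place of a member in any library was 629. Rank 1 was first in all 24 libraries. At the lower edge ranks 98, 99 and 100 had a mean of 658, 652 and 650.4 CPM, and the next 3 contigs had 642, 639 and 636 CPM. Only 2 more abundant contigs were left out by the tissue limit, with means of 989 and 966 CPM and log2 ratios of -3.97 and -2.14 at 1 day. Inside the limit the most uneven members were ranks 75 and 57, with log2 ratios of -1.83 and -1.77 at 2 days.

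Library totals ranged from 17617430 to 48928331 estimated counts, and the lowest count of any member in any library was 2926. The median length of the members was 1112.5 bases (242 to 10085) against 1034 bases over all tested contigs. Estimated counts were whole in every library, within 1e-06, for 32 members, beside 24.2% of the tested contigs. Per length the order changed. By mean TPM, the abundance per effective length, 65 members were among the highest 100, and all of ranks 1 to 10 were. Identifiers of 43 members stood in 19 runs of neighbouring numbers (at most 5 apart), the longest with 6 members.

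The 100 contigs together took between 14.6% and 30.3% of the estimated counts of a library. In petioles in air they held 26.3%, 27.01% and 24.2% at 1 day and 24.2%, 30.3% and 20.2% at 2 days. In petioles under water they held 22.6%, 22.8% and 23.3% at 1 day and 21.9%, 23.0% and 19.5% at 2 days. All petiole libraries under water at 1 day lay below all those in air, while at 2 days the groups overlapped. In stems in air the share was 14.6%, 19.9% and 18.9% at 1 day and 18.1%, 16.0% and 23.8% at 2 days. In stems under water it was 22.6%, 23.97% and 19.998% at 1 day and 19.2%, 18.4% and 19.1% at 2 days. At 1 day all stem libraries under water lay above all those in air, though the nearest, at 19.998% and 19.93%, were almost level, and at 2 days the groups overlapped. In a bulk sample fewer cells of a type and less RNA per cell cannot be told apart.

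As group means, the share in petioles was 25.8 ± 1.49% in air and 22.9 ± 0.385% under water at 1 day (SD, n = 3), a difference of -2.94 percentage points. At 2 days it was 24.9 ± 5.05% and 21.5 ± 1.80%, a difference of -3.44 points that lay within the SD of the group in air. In stems the share was 17.8 ± 2.84% in air and 22.2 ± 2.02% under water at 1 day, a difference of 4.41 points, and 19.3 ± 4.05% and 18.9 ± 0.415% at 2 days, a difference of -0.374 points. The differences of the 2 tissues thus had opposite signs at 1 day. Single libraries carried much of the values at 2 days. Without replicate 2 in air the petiole difference was -0.753 points, and without replicate 3 in air it was -5.77 points. In stems it was -2.03 points without replicate 2 in air and 1.88 points without replicate 3 in air, which turns its sign. At 1 day the stem difference was 2.80 points without replicate 1 in air. No test was run on these sums, because the contigs were chosen on their level.

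**Figure D1:**
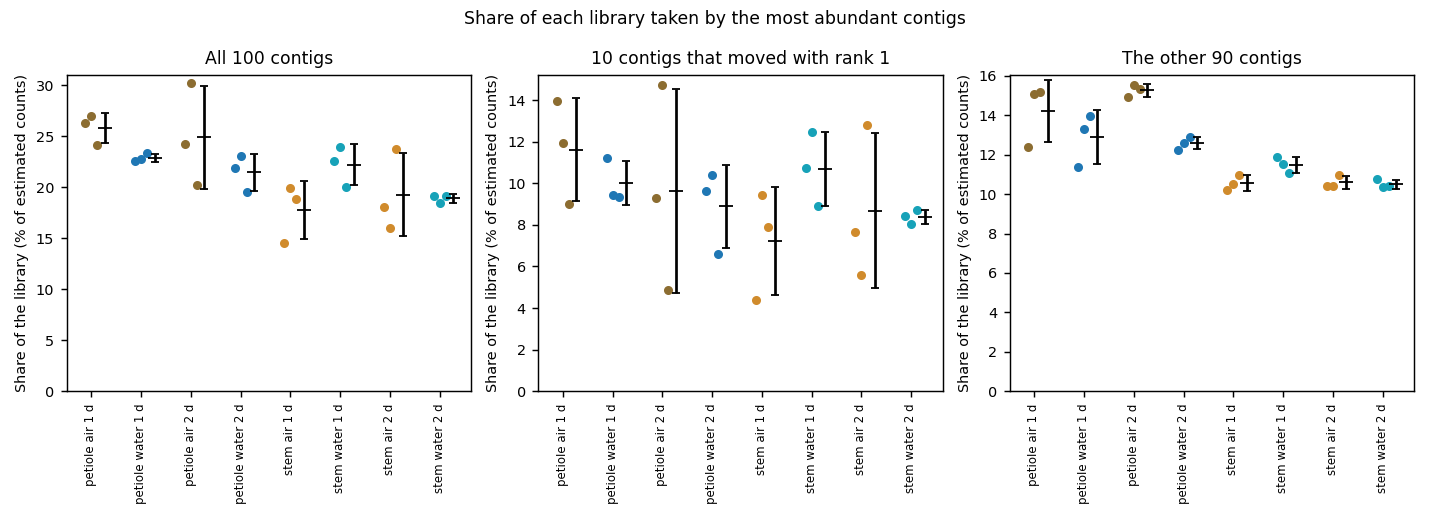
Share of the estimated counts of each library (%) taken by all 100 contigs, by the 10 that moved with rank 1 and by the other 90. Points are libraries, and the bar beside each group is the mean with its SD (n = 3). Over all libraries the 10 contigs range from 4.37% to 14.7%. The other 90 lie closer together within all groups but petioles under water at 1 day, from 11.4% up in petioles and up to 11.9% in stems.

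In air the mean share was smaller in stems than in petioles, and this is a description because the rule used the same contrast. The mean share in stems minus that in petioles was -8.04 points at 1 day, without overlap of the groups, and -5.63 points at 2 days, with overlap. Under water it was -0.691 points at 1 day, with overlap, and -2.56 points at 2 days, without overlap. Of the 100 members 64 had a lower level in stems than in petioles in air on both days and 29 a higher one. The median log2 ratio of stem over petiole in air was -0.57 at 1 day and -0.37 at 2 days.

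Rank 1, a contig of 2393 bases, alone held between 1.46% and 5.41% of a library (median 3.26%). It held in petioles in air 4.86, 3.92 and 3.38% at 1 day and 3.38, 5.41 and 1.49% at 2 days, and under water 3.90, 3.15 and 3.11% and 3.53, 3.88 and 2.35% (replicates 1, 2 and 3 in order). It held in stems in air 1.46, 3.03 and 2.81% and 2.69, 1.98 and 4.29%, and under water 4.02, 4.02 and 3.10% and 2.86, 3.00 and 3.53%. At 2 days in air its replicates spread from 1.49% to 5.41% in petioles and from 1.98% to 4.29% in stems, and the groups in air and under water overlapped in each tissue and day but for stems at 1 day. Its log2 change under water was -0.32 ± 0.41 (SE, n = 3; adjusted p = 0.638, edgeR) in petioles and 0.69 ± 0.41 (SE, n = 3; adjusted p = 0.284, edgeR) in stems at 1 day. At 2 days it was -0.22 ± 0.41 (SE, n = 3; adjusted p = 0.729, edgeR) and -0.04 ± 0.41 (SE, n = 3; adjusted p = 0.962, edgeR). None of these passed the test. With 1 library left out or another fit, the log2 change in petioles at 2 days lay between -0.61 and 0.38, so its sign was not fixed.

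Rank 2 (460 bases) held in petioles in air 2.56, 2.14 and 1.44% at 1 day and 1.43, 2.46 and 0.667% at 2 days, and under water 1.83, 1.72 and 1.62% and 1.73, 2.15 and 0.932%. The shares of rank 2 were in stems in air 0.656, 1.65 and 1.23% and 1.12, 0.783 and 2.15%, and under water 1.61, 2.17 and 1.47% and 1.39, 1.11 and 1.37%. Within petioles in air at 2 days replicate 2 was the highest and replicate 3 the lowest, as for rank 1. Rank 3 (1405 bases) held in petioles in air 1.72, 1.33 and 1.38% at 1 day and 1.20, 1.86 and 0.686% at 2 days, and under water 1.46, 1.17 and 1.22% and 1.30, 1.26 and 0.934%. The shares of rank 3 were in stems in air 0.638, 1.05 and 1.11% and 1.13, 0.690 and 1.65%, and under water 1.47, 1.73 and 1.11% and 1.15, 1.22 and 1.15%. Its lowest library, stem in air at 1 day replicate 1, was also the lowest for rank 1.

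Rank 4 (1296 bases) held in petioles in air 1.34, 1.29 and 0.924% at 1 day and 0.973, 1.30 and 0.805% at 2 days, and under water 1.18, 0.960 and 0.933% and 0.843, 0.811 and 0.826%. The shares of rank 4 were in stems in air 0.593, 1.09 and 0.868% and 0.808, 0.765 and 1.30%, and under water 1.04, 1.18 and 0.947% and 0.992, 0.823 and 0.812%. Its highest library was 2.25 times its lowest, against 3.70 times for rank 1. Rank 6 (835 bases) held in petioles in air 1.03, 0.940 and 0.623% at 1 day and 0.720, 1.03 and 0.482% at 2 days, and under water 0.937, 0.731 and 0.721% and 0.630, 0.622 and 0.507%. The shares of rank 6 were in stems in air 0.404, 0.781 and 0.568% and 0.649, 0.547 and 1.07%, and under water 0.841, 1.01 and 0.731% and 0.719, 0.655 and 0.608%. Replicate 3 of stems in air at 2 days was its highest library.

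Rank 7 (250 bases) held in petioles in air 0.888, 0.830 and 0.464% at 1 day and 0.574, 0.964 and 0.232% at 2 days, and under water 0.674, 0.634 and 0.589% and 0.668, 0.739 and 0.361%. The shares of rank 7 were in stems in air 0.213, 0.640 and 0.526% and 0.464, 0.285 and 0.846%, and under water 0.675, 0.803 and 0.542% and 0.433, 0.446 and 0.525%. It was highest in replicate 2 of petioles in air at 2 days, and lowest in replicate 1 of stems in air at 1 day. Rank 9 (1511 bases) held in petioles in air 0.621, 0.565 and 0.299% at 1 day and 0.374, 0.633 and 0.204% at 2 days, and under water 0.504, 0.425 and 0.466% and 0.376, 0.385 and 0.276%. The shares of rank 9 were in stems in air 0.181, 0.507 and 0.323% and 0.366, 0.226 and 0.635%, and under water 0.478, 0.659 and 0.460% and 0.385, 0.381 and 0.332%. None of ranks 2, 3, 4, 6, 7 and 9 was called in any of the comparisons of water with air or of stem with petiole under water.

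These contigs varied together from library to library within groups. As a measure, log2(CPM + 1) was centred on its mean in each group, and each member was correlated with rank 1 over the 24 libraries. The contigs of 1 library are counted at the same depth, and their shares have a fixed sum. A likeness of at least 0.75 was reached by 10 members, ranks 1, 2, 3, 4, 6, 7, 9, 13, 22 and 51, of which the lowest was at 0.803, and the next member was at 0.723. This limit was set after the values were seen and after limits of 0.9 and 0.8 had been looked at, so the set is a description and carries no test. A limit of 0.8 gave the same 10 members and one of 0.9 gave 5. Among the next 900 contigs by rank, 7 also reached 0.75. The lengths in the set ran from 250 to 2393 bases, and ranks 1 and 3, 2 and 7, and 6 and 9 have neighbouring identifiers.

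The 10 contigs together held 13.9%, 11.9% and 8.99% in petioles in air at 1 day and 9.29%, 14.7% and 4.88% at 2 days. Under water they held 11.2%, 9.45% and 9.32% and then 9.64%, 10.4% and 6.62%. In stems they held 4.37%, 9.42% and 7.88% in air at 1 day and 7.66%, 5.57% and 12.8% at 2 days, and under water 10.7%, 12.5% and 8.92% and then 8.41%, 8.05% and 8.72%. The groups in air and under water overlapped in both tissues on both days. The lowest and highest libraries of the set, replicate 1 of stems in air at 1 day and replicate 2 of petioles in air at 2 days, were also the lowest and highest for all 100 contigs. Those libraries had the highest and the lowest scaling factor of all 24, 1.19 and 0.826 (TMM, the factor that edgeR multiplies a library total by), and the part of either in the other was not tested. The median SD of log2 CPM between replicates was 0.122 to 0.822 over the groups in the set and 0.123 to 0.258 in the other 90 contigs.

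None of the 10 passed the test in any comparison. Their log2 changes under water lay between -0.34 and -0.15 in petioles at 1 day and between -0.81 and -0.06 at 2 days. In stems they lay between 0.40 and 0.91 at 1 day, where 1 of the 10 had an unadjusted p under 0.05, and between -0.58 and -0.04 at 2 days. The missed threshold does not show that they did not change.

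The other 90 contigs held a share that varied less between replicates in all groups but petioles under water at 1 day. There the SD was 1.37 points against 1.05 in the set. The 10 had been set apart on that variation. In petioles the 90 held 12.4%, 15.1% and 15.2% in air and 11.4%, 13.3% and 13.99% under water at 1 day, with overlap. At 2 days they held 14.9%, 15.6% and 15.4% in air and 12.3%, 12.6% and 12.9% under water, without overlap. In stems they held 10.2%, 10.5% and 10.98% in air and 11.9%, 11.5% and 11.1% under water at 1 day, also without overlap. At 2 days in stems they held 10.4%, 10.4% and 10.99% in air and 10.8%, 10.4% and 10.4% under water, with overlap. The mean difference of water and air was -1.32 points in petioles and 0.939 in stems at 1 day, and -2.69 and -0.0939 points at 2 days. With the set taken at a likeness of 0.9 the differences at 1 day were -1.63 and 1.80 points and those at 2 days -3.25 and -0.406. Petioles lay above stems without overlap in air on both days and under water at 2 days.

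**Figure D2:**
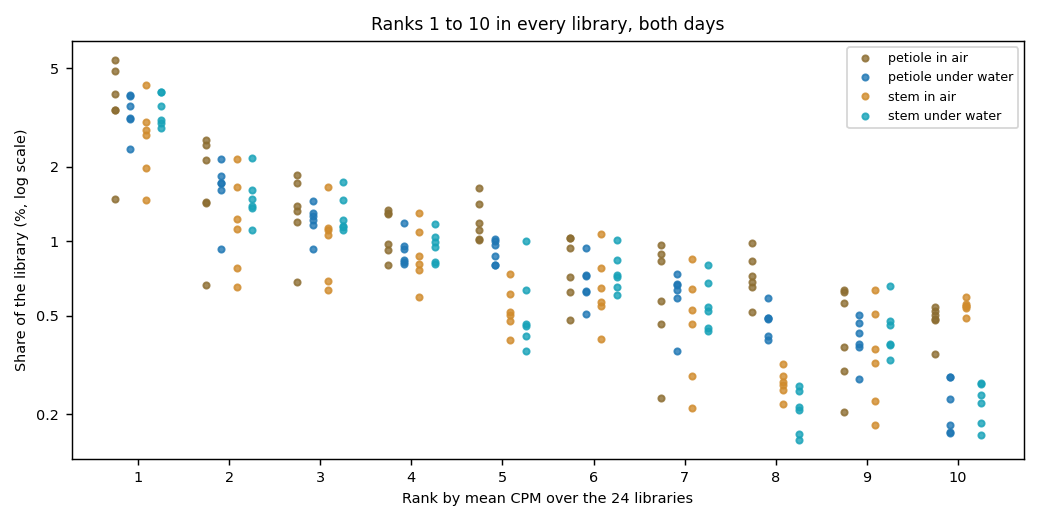
Share of each library (%, log scale) taken by each of ranks 1 to 10. Each point is 1 library of either day, in colour by tissue and treatment. Ranks 1, 2, 3, 4, 6, 7 and 9 overlap in all 4 columns, rank 10 lies lower under water in both tissues, and rank 8 lies higher in petioles.

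Ranks 5, 8 and 10 were outside the set that moved with rank 1. Their likeness to rank 1 was 0.543, -0.658 and -0.225, so rank 5 varied in part with it. Rank 5 (3836 bases) held in petioles in air 1.02, 1.41 and 1.02% at 1 day and 1.18, 1.64 and 1.11% at 2 days, and under water 0.966, 1.00 and 1.02% and 0.868, 0.801 and 0.799%. It took in stems in air 0.398, 0.615 and 0.504% and 0.478, 0.519 and 0.737%, and under water 0.637, 1.01 and 0.454% and 0.464, 0.416 and 0.361%. It fell in petioles at 2 days, by a log2 change of -0.79 ± 0.29 (SE, n = 3; adjusted p = 0.0416, edgeR), and did not pass the test in the other comparisons of water with air. That call ended in 7 of 14 other fits, among them those without replicate 1, 2 or 3 under water or replicate 1 or 2 in air, with adjusted p from 0.018 to 1 over the fits (edgeR, DESeq2 and limma-voom). Under water at 2 days it was lower in stems than in petioles, by a log2 difference of -1.16 ± 0.29 (SE, n = 3; adjusted p = 0.00895, edgeR), and the libraries did not overlap.

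Rank 8 (GEMC01034486.1, 957 bases) held in petioles in air 0.517, 0.682 and 0.835% at 1 day and 0.723, 0.656 and 0.981% at 2 days, and under water 0.398, 0.490 and 0.490% and 0.414, 0.486 and 0.590%. It took in stems in air 0.318, 0.252 and 0.270% and 0.262, 0.285 and 0.221%, and under water 0.167, 0.248 and 0.158% and 0.213, 0.260 and 0.207%. Every petiole library of every group was above every stem library. Under water the log2 difference of stem and petiole was -1.32 ± 0.20 (SE, n = 3; adjusted p = 0.00019, edgeR) at 1 day and -1.30 ± 0.20 (SE, n = 3; adjusted p = 0.000166, edgeR) at 2 days. In petioles it fell under water, with log2 changes of -0.61 ± 0.19 (SE, n = 3; adjusted p = 0.0254, edgeR) and -0.74 ± 0.19 (SE, n = 3; adjusted p = 0.00562, edgeR), and in stems the changes of -0.43 and -0.25 did not pass the test. The call at 1 day ended in 6 of 14 other fits, among them those without replicate 1 under water, without replicate 2 or 3 in air, and with library totals alone.

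Rank 10 (GEMC01043073.1, 1494 bases) held in petioles in air 0.350, 0.480 and 0.522% at 1 day and 0.483, 0.502 and 0.545% at 2 days, and under water 0.181, 0.170 and 0.169% and 0.282, 0.283 and 0.231%. It took in stems in air 0.547, 0.540 and 0.548% and 0.596, 0.559 and 0.490%, and under water 0.221, 0.165 and 0.184% and 0.268, 0.266 and 0.239%. No library under water reached a library in air in either tissue. Its log2 change was -1.44 ± 0.15 (SE, n = 3; adjusted p = 9.65e-07, edgeR) in petioles and -1.41 ± 0.15 (SE, n = 3; adjusted p = 1.5e-06, edgeR) in stems at 1 day. At 2 days it was -1.03 ± 0.15 (SE, n = 3; adjusted p = 3.49e-05, edgeR) and -1.17 ± 0.15 (SE, n = 3; adjusted p = 1.9e-05, edgeR).

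The rule on the mean favours contigs that are high in one condition. A contig that enters only through the libraries of one condition has to differ between conditions. The lowest mean of a member was 650.4 CPM, and in petioles 20 members at 1 day and 21 at 2 days had a group mean below it in air or under water. In stems 30 had one on both days, and between the tissues under water 26 and 27 had one. For those members the changes are given below as descriptions, with no p. The counts of members called, and the medians over the members, are descriptions as well, and support nothing about abundant contigs as a class.

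The test was fitted to all 53919 tested contigs with edgeR, and a contig counted as called at a Benjamini-Hochberg adjusted p under 0.05. In petioles 1 day of submergence raised 16 and lowered 26 of the 100 members, beside 13.5% of the tested contigs raised and 10.8% lowered. At 2 days 15 rose and 44 fell, beside 16.3% and 17.2% (33.5% either way, and 24.3% at 1 day). Of the members with a mean of at least 650.4 CPM in both groups, 5 of 80 rose and 20 fell at 1 day, and 4 of 79 rose and 34 fell at 2 days. Among the next 900 contigs by rank the counts were 195 and 243 at 1 day and 197 and 408 at 2 days. The median log2 change of the members was -0.27 at 1 day and -0.44 at 2 days, against 0.02 on both days over all contigs. A change of at least 2-fold was fitted for 20 members at 1 day and 23 at 2 days, and 27.1% and 33.0% of all tested contigs had one. Without replicate 2 in air the calls at 1 day were 18 up and 17 down, and a fit to the 6 libraries of that comparison called 20 members.

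The largest rises in petioles were those of ranks 89, 49 and 100, whose group means in air lay below 650.4 CPM, so that they are members through their libraries under water. GEMC01023683.1 (rank 89, 761 bases) stood at 1 day at 171, 220.2 and 219 CPM in air against 759, 1149.8 and 1382 CPM under water, where CPM of single contigs are on TMM-scaled totals. Every library under water was above every library in air, and the log2 change was 2.43 ± 0.23 (SE, n = 3). GEMC01033391.1 (rank 49, 1086 bases) stood at 345, 457 and 380.1 CPM in air against 1253, 1929 and 2337 CPM under water on day 1, then at 372, 497 and 311 CPM in air against 1579, 1665 and 1776 CPM under water on day 2. Its groups did not overlap, and it rose by 2.22 ± 0.23 (SE, n = 3) and then by 2.09 ± 0.23 (SE, n = 3) on the log2 scale. GEMC01033531.1 (rank 100, 1096 bases) stood at 2 days at 307, 402 and 268 CPM in air against 1231, 1447 and 1202 CPM under water, again without overlap, and rose by 1.99 ± 0.24 (SE, n = 3) on the log2 scale.

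The largest falls in petioles were those of ranks 82 and 85, whose group means under water lay below 650.4 CPM, so that they are members through their libraries in air. GEMC01011258.1 (rank 82, 756 bases) stood at 1304, 1325 and 1471 CPM in air against 410.4, 314 and 244 CPM under water on day 1, then at 1521, 1166 and 1787 CPM in air against 207, 211 and 245 CPM under water on day 2. No library under water reached those in air, with log2 changes of -2.08 ± 0.18 (SE, n = 3) and -2.75 ± 0.19 (SE, n = 3). GEMC01043071.1 (rank 85, 1331 bases), the neighbour in number of rank 10, stood at 635, 892 and 856 CPM in air against 263, 269 and 252 CPM under water on day 1, then at 1032, 1109 and 1023 CPM in air against 314, 346 and 273 CPM under water on day 2. Its groups did not overlap either, and the log2 changes were -1.60 ± 0.15 (SE, n = 3) and -1.76 ± 0.15 (SE, n = 3).

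In stems 1 day of submergence raised 21 members and lowered 13, beside 9.99% and 9.09% of the tested contigs (19.1% either way). At 2 days 16 rose and 20 fell, beside 10.4% and 10.5% (20.9% either way). Of the members with a mean of at least 650.4 CPM in both groups, 12 of 70 rose and 7 fell at 1 day, and 9 of 70 rose and 13 fell at 2 days. Among the next 900 contigs the counts were 188 and 187, and then 189 and 281. The median log2 change of the members was 0.14 at 1 day and -0.18 at 2 days, against -0.03 and -0.01 over all contigs. The balance of rises and falls in stems depended on scaling. With library totals alone 17 members rose and 18 fell at 1 day, 48.6% higher against 61.8%, and 20 rose and 16 fell at 2 days, 55.6% higher against 44.4%. Library totals alone also moved the median of all contigs at 1 day from -0.03 to -0.14, and no called member changed its sign. Leaving out replicate 1, 2 or 3 under water at 2 days gave 14 up and 13 down, 16 and 11, and 13 and 13, and leaving out replicate 3 in air gave 15 and 11.

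In stems the largest rises were those of ranks 89 and 49 on both days, and the largest falls those of ranks 10 and 82. Again ranks 89 and 49 had means below 650.4 CPM in air and rank 82 under water, while rank 10 stood above that level in every group. GEMC01023683.1 (rank 89) stood at 188, 249.8 and 317 CPM in air against 1773, 1489 and 1686 CPM under water on day 1, then at 249, 315 and 273 CPM in air against 946, 1006 and 1294 CPM under water on day 2. It rose without overlap by 2.71 ± 0.23 (SE, n = 3) and 1.96 ± 0.23 (SE, n = 3) on the log2 scale. GEMC01033391.1 (rank 49) stood at 348, 553 and 629 CPM in air against 2668, 2029 and 2239.5 CPM under water and then at 481, 436 and 589.7 CPM in air against 1789, 1745 and 1981 CPM under water, and rose without overlap by 2.18 ± 0.23 (SE, n = 3) and 1.87 ± 0.23 (SE, n = 3).

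GEMC01011258.1 (rank 82) stood at 1169, 914 and 1011 CPM in air against 448, 377 and 378 CPM under water on day 1, then at 986, 1289 and 1015 CPM in air against 341, 312 and 293 CPM under water on day 2. The groups did not overlap, and it fell with log2 changes of -1.36 ± 0.18 (SE, n = 3) and -1.80 ± 0.18 (SE, n = 3).

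**Figure D3:**
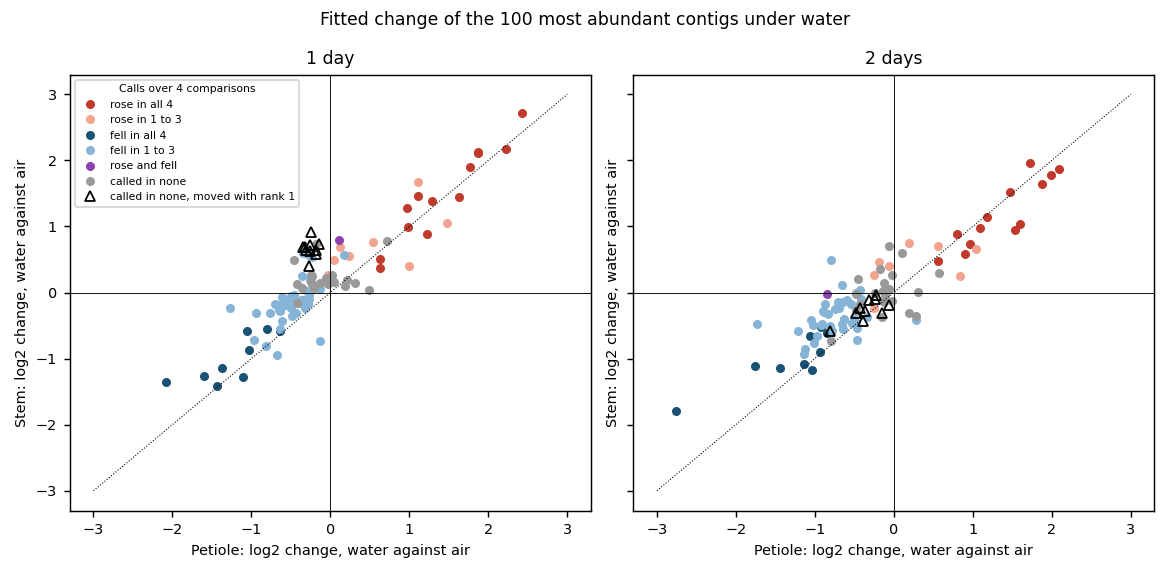
Fitted log2 change under water against air of each of the 100 contigs in petioles (x axis) and stems (y axis), at 1 day and 2 days. Colour gives the calls over the 4 comparisons, triangles the 10 contigs that moved with rank 1, and the dotted line equal change. At 1 day the triangles lie between -0.34 and -0.15 in petioles and between 0.40 and 0.91 in stems, and at 2 days below 0 on both axes.

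Over the 4 comparisons of water with air, 13 members rose in all 4 and 9 fell in all 4, beside 5.3% and 4.33% of the tested contigs. Another 8 rose in 1 to 3 of them with no fall and 38 fell in 1 to 3 with no rise, beside 16.7% and 18%. In none were 31 called, beside 55.2%, and 1 (rank 16, chosen after its values were seen) rose in stems at 1 day and fell in petioles at 2 days, beside 0.466% with calls in both directions. Of the 13 that rose in all 4, 9 had a group mean below 650.4 CPM in at least 1 of the comparisons, and so had 4 of the 9 that fell in all 4. The rise of rank 16 ended in 4 of 14 other fits, among them those without replicate 1 under water and without replicate 1 or 2 in air. None was called in opposite directions in stems and petioles on the same day, beside 0.0389% of the tested contigs at 1 day and 0.0556% at 2 days. At 1 day 16 members rose in both tissues and 12 fell in both, beside 7.9% and 6.37% of the tested contigs. At 2 days 13 rose and 20 fell in both, beside 8.46% each. The median log2 change of the 13 that rose in all 4 was 1.29 and 1.47 in petioles at 1 and 2 days and 1.45 and 1.04 in stems. For the 9 that fell in all 4 it was -1.11 and -1.06 in petioles and -1.15 and -1.08 in stems. Rank 10 was among the latter. The 31 contigs called in none held 7 of ranks 1 to 10.

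These classes were formed from the calls, so their shares of a library are descriptions. The 13 that rose in all 4 went from 0.790% to 1.92% of the counts in petioles at 1 day and from 0.782% to 1.99% at 2 days. In stems they went from 1.10% to 2.62% and from 1.06% to 2.36%. The 9 that fell in all 4 went from 1.71% to 0.778% and from 1.81% to 0.856% in petioles, and from 1.60% to 0.682% and from 1.54% to 0.784% in stems. The 38 that fell in 1 to 3 held 7.65% in air and 5.805% under water in petioles at 1 day, and 8.37% and 5.47% at 2 days. In stems they held 5.04% and 4.59% at 1 day and 5.23% and 4.197% at 2 days. The 31 called in none held the largest part, with group means of 9.23% to 14.7%.

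**Figure D4:**
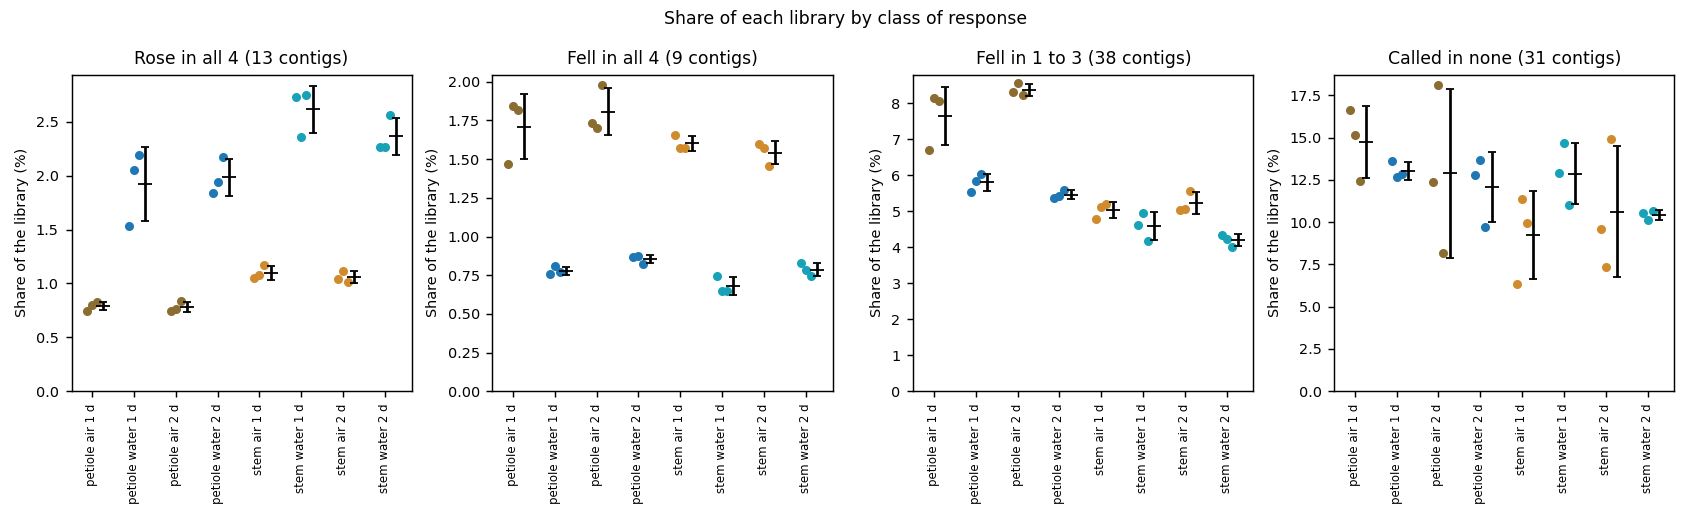
Share of each library (%) taken by 4 classes of the contigs, by their calls over the 4 comparisons of water with air. Points are libraries and bars the mean with its SD (n = 3), and the scales of the panels differ. The 13 contigs that rose in all 4 go from 1.06% to 2.36% in stems at 2 days, and the 9 that fell in all 4 from 1.54% to 0.784%.

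Whether the tissues responded differently was tested by the interaction of tissue and treatment. No member was called at 1 day or at 2 days with edgeR, beside 0.221% and 0.605% of the tested contigs. By direction, 0.0705% of the tested contigs were called with a more positive change in stems and 0.15% with a more negative one at 1 day. At 2 days these were 0.271% and 0.334%. An unadjusted p under 0.05 (edgeR) was found for 11 members at 1 day and 18 at 2 days. Among the next 900 contigs by rank it was found for 132 and 164, and the share over all tested contigs was not computed. DESeq2 called 1 member at 1 day and 5 at 2 days, 4 of them with a more positive change in stems, and limma-voom called 0 on both days. The shares of all tested contigs called by these methods are not given here, so their counts cannot be set against a background. The member called at 1 day by DESeq2, with library totals alone, with the replicate block and without replicate 1 of petioles under water was rank 79, chosen after its values were seen, with a log2 interaction of -0.60 ± 0.14 (SE). Rank 79 was also called at 2 days by DESeq2 and with the replicate block, with log2 interactions of -0.54 and -0.58. Its mean in petioles in air lay below 650.4 CPM. Library totals alone moved the median interaction of all contigs at 1 day from -0.05 to -0.22.

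Under water the tissues could be tested, since the tissue limit used only libraries from air, while the mean level used all 24. At 1 day 10 members were higher and 36 lower in stems than in petioles, beside 4.56% and 6.34% of the tested contigs (10.9% either way). At 2 days 12 were higher and 45 lower, beside 9.3% and 9.43% (18.7% either way). Of those with a mean of at least 650.4 CPM in both tissues under water, 7 of 74 were higher and 22 lower at 1 day, and 4 of 73 were higher and 28 lower at 2 days. Among the next 900 contigs the counts were 115 and 173 at 1 day, and 198 and 215 at 2 days. The median log2 difference of the members was -0.34 and -0.50, against -0.01 and 0.00 over all contigs, and against 0.08 and -0.02 for the next 900 contigs. Without replicate 2 of petioles under water at 1 day the calls were 5 higher and 28 lower, without replicate 3 of petioles 6 and 22, and without replicate 3 of stems 6 and 28, and a fit to the 6 libraries alone called 16 members. Library totals alone moved the median of all contigs at 2 days from 0.00 to 0.16.

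Among the members higher in stems, GEMC01018687.1 (rank 58, 683 bases) stood under water at 705, 1031 and 1161 CPM in petioles against 3044, 2352 and 2704 CPM in stems at 1 day. At 2 days it stood at 803, 894 and 851 CPM in petioles against 1958, 1806 and 2294 CPM in stems. The tissues did not overlap, and the log2 difference was 1.48 ± 0.20 (SE, n = 3) and then 1.25 ± 0.20 (SE, n = 3). On plain library totals its group means were 2703 and 2213 CPM in stems under water. In the other groups they ran from 246 to 925 CPM. It is a member mainly through stems under water, so the differences of rank 58 are descriptions with no p. GEMC01052508.1 (rank 15, 756 bases) stood at 2087, 2370.3 and 2486 CPM in petioles against 5257, 4472 and 5545 CPM in stems at 1 day, without overlap, a log2 difference of 1.14 ± 0.16 (SE, n = 3; adjusted p = 0.00016, edgeR). In air rank 15 was higher in stems as well. On plain library totals its group means there were 1104 CPM in petioles and 2248 CPM in stems at 1 day, and 983 and 2217 CPM at 2 days. GEMC01035111.1 (rank 93, 943 bases) stood at 305, 256 and 339 CPM in petioles against 532, 572 and 586 CPM in stems at 2 days, also without overlap, a log2 difference of 0.91 ± 0.22 (SE, n = 3), and its means under water at 2 days lay below 650.4 CPM in both tissues.

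Among those lower in stems, GEMC01043717.1 (rank 75, 2140 bases) stood under water at 714, 1217 and 1184 CPM in petioles against 332, 399 and 309 CPM in stems at 1 day. At 2 days it stood at 920.4, 1109 and 969 CPM in petioles against 332, 292 and 265 CPM in stems. The tissues did not overlap, and the log2 difference was -1.58 ± 0.20 (SE, n = 3) and then -1.75 ± 0.20 (SE, n = 3). GEMC01043718.1 (rank 57, 2002 bases), its neighbour in number, stood at 1021, 1277 and 1111 CPM in petioles against 418, 374 and 379 CPM in stems at 2 days, without overlap, a log2 difference of -1.54 ± 0.20 (SE, n = 3). In stems under water ranks 75 and 57 had means below 650.4 CPM. At 2 days they were also the most uneven members between the tissues in air, and both fell under water in all 4 comparisons.

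**Figure D5:**
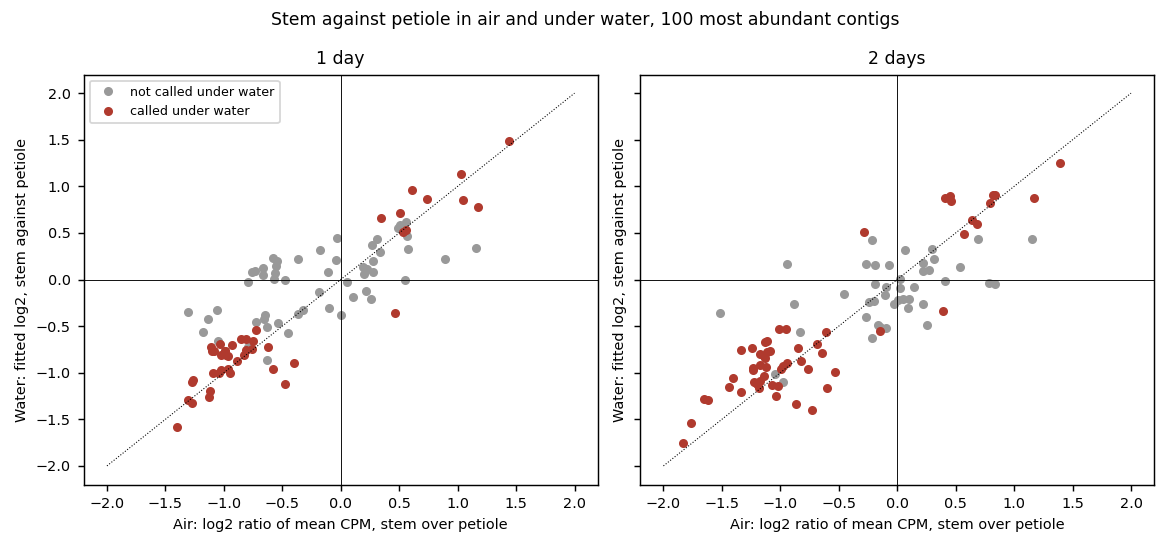
Stem against petiole for each of the 100 contigs, in air (x axis, log2 ratio of mean CPM, the measure the rule used) and under water (y axis, fitted log2 difference), at 1 day and 2 days. Red points were called under water, and the dotted line marks equal values. Of the red points 10 lie above 0 and 36 below at 1 day, and 12 above and 45 below at 2 days.

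The members also differed in how far their level ranged over the 8 groups. The highest group mean was at least 2 times the lowest for 75 members and at least 4 times for 15, with a range from 1.33 to 10.97. In 13 of the 19 runs of neighbouring identifiers all members had the same class of calls, among them ranks 35 and 49, ranks 81 and 100, and ranks 15 and 62, which all rose in all 4 comparisons. Ranks 10 and 85 and ranks 57 and 75 fell in all 4. Ranks 1 and 3, 2 and 7, 6 and 9, and 22 and 25 matched only in being called in none. The classes fell in 1 to 3 and called in none hold 38 and 31 members, and the matches expected from class sizes were not computed. Such neighbours can share reads, and their sequences were not used here.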

How the data were processed

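RNA sequencing was done on 24 libraries of watercress petioles and stems, 3 for each of 8 groups, each from 5 pooled plants. Per the labels' protocols, the libraries did not keep the strand and were read from both ends with reads of 100 bp, so an antisense transcript would be counted with its partner. The tools named, per the submitters' processing notes, are kallisto, edgeR and limma. No version, transcriptome or filter of reads is stated in the sources used here. The estimated counts are as deposited by the authors, not normalised, and need not be whole. The TPM values are as deposited by the authors and served for ranks only. The length and effective length in bases stand in the tables per the file headers.

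Shares are sums of estimated counts over the library total. Counts were rounded, filtered (filterByExpr, minimum count 10, minimum total 15), scaled by TMM and fitted with edgeR 4.0.16 (R 4.3.3), with 1 mean per group over all 24 libraries. Tests were quasi-likelihood, two-sided and adjusted over 53919 contigs by the Benjamini-Hochberg method, with calls at an adjusted p under 0.05. SE were derived from the F statistic. Alternatives were library totals alone, TMM factors without the members, DESeq2 1.42.0, limma-voom (limma 3.58.1), no filter, a bound of 2-fold, a fit to the libraries compared, the replicate number as a block, and each library left out. The fits were run on simulated data with changes of 2-fold and more. The first pass limit was missed because most of the 2-fold changes were not recovered, and the limits were then set anew by fold size. A change of 2-fold or less can therefore go uncalled. Per comparison, at most 2 called members with the largest rise and 2 with the largest fall are printed by identifier, and ranks 1 to 10 with their value in every library. Members, lists and tests were chosen with earlier results of these data known, and the contigs that moved with rank 1 were set apart after their values were seen. Reads carried no molecular identifiers, so depth speaks of counting error only. Lists of genes and cell type markers were not used, because the contigs have no gene names here, and no reference sequence was used.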

Additional observations from a re-analysis of the deposited data

Results flagged for a closer look

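The share of all 100 contigs moved in opposite directions in the tissues at 1 day. Each stem library under water was above each in air, the nearest at 19.998% and 19.93%, and each petiole library under water was below each in air. The difference in stems minus that in petioles was 7.35 percentage points. That difference was not tested, since the contigs were chosen on their level. Without the 10 contigs that moved with rank 1 the differences were -1.32 points in petioles, where the groups overlapped, and 0.939 in stems, without overlap. For the 10 contigs alone they were -1.62 and 3.47 points, with overlap in both tissues.

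The share of ranks 51 to 100 also moved in opposite directions in the tissues at 2 days. In stems the nearest libraries were almost level, at 3.845% under water and 3.838% in air. It was 5.21 ± 0.131% in air and 4.65 ± 0.188% under water in petioles, and 3.73 ± 0.0967% and 3.93 ± 0.0710% in stems (SD, n = 3). The difference in stems minus that in petioles was 0.759 points and was not tested.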

How the results depend on the processing

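The counts of members called under other settings, here and above, stand without the share of all tested contigs called under the same setting. They are therefore no result about the members as a class. With a bound of 2-fold, the members called went from 42 to 10 (petioles, 1 day), 59 to 9 (petioles, 2 days), 34 to 8 (stems, 1 day), 36 to 5 (stems, 2 days), 46 to 0 and 57 to 1 (stem against petiole under water, 1 and 2 days). The bound asks for larger changes, and it also ended 9 of the 24 calls that are the largest rises and falls of each comparison, all of which held in the other alternatives. Of the further calls given for ranks 5, 8, 10 and 16 the bound ended all but the fall of rank 10 in petioles at 1 day, and other alternatives ended those of ranks 5, 8 and 16 described above. A fit to the libraries compared called 20 members in petioles at 1 day and 16 between tissues under water at 1 day, but 44 in stems at 2 days and 62 between tissues at 2 days. The interaction at 1 day called 1 member with library totals alone, with DESeq2 and with the replicate block, and at 2 days 5 with DESeq2 and 1 with the block. The cause was not tested. Leaving out 1 library gave 35 to 44, 49 to 61, 24 to 31 and 26 to 27 calls for the comparisons of water with air in that order, 28 to 57 and 44 to 51 between tissues under water, and 0 to 1 and 0 to 0 for the interaction. Library-by-library, share differences ran from -3.77 to -2.35 and -5.77 to -0.753 points in petioles and from 2.80 to 5.51 and -2.03 to 1.88 points in stems.

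Share differences outside the 10 contigs that moved with rank 1, an alternative chosen after seeing the data, were -1.32 points in petioles and 0.939 in stems at 1 day, and -1.74 and 1.49 points as a share of the counts outside the set. On both measures the groups in air and under water overlapped in petioles and did not in stems. The replicate block changed no other count by over 1.5 times. Of 24 same-numbered pairs 3 had a correlation of deviations over 0.1 (range -0.0719 to 0.175), and in none of 8 comparisons did every pair. With 3 libraries per group this cannot show whether same-numbered pools share plants, and the labels do not state it. The main fits treated the pools as independent.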
